A study of Mus musculus with 6 samples.

Results

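The genes described here are Srebf1, which encodes the transcription factor SREBP1, and 9 genes of de novo lipogenesis: Acly, Me1, Acaca, Acacb, Fasn, Elovl6, Scd1, Thrsp and Pnpla3. They were chosen by name, with earlier results of these data known, and all 10 are among the 17460 genes listed for the livers of this study. RNA was sequenced from whole livers of 3 control mice and 3 Blnc1 LKO mice. In Blnc1 LKO mice the gene of the long noncoding RNA Blnc1 was targeted in the liver. The paper reports that this method lowered Blnc1 only in part in whole liver. The loss was larger in hepatocytes, and non-parenchymal cells were little changed. All 6 mice were C57BL/6, 9 months of age, and had been fed a NASH diet (D09100301) for 24 weeks. According to the methods, LKO mice were Cas9 transgenic mice transduced with an adenovirus carrying a pair of sgRNAs against Blnc1. The labels name the control mice only as control, and do not give the sex of any mouse or a promoter that limits Cas9 to hepatocytes. For its high-fat diet experiment the paper describes controls as Cas9 transgenic mice given a GFP adenovirus. It does not restate the control for the NASH diet. The comparison asks whether the lipogenic program differed between NASH-fed control and Blnc1 LKO livers.

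De novo lipogenesis turns carbohydrate carbon into fatty acids in the hepatocyte. SREBP1c, the main hepatic product of Srebf1, is made as a membrane-bound precursor that is cut and enters the nucleus to activate genes of fatty acid synthesis, and its transcription is stimulated by insulin and by the oxysterol receptor LXR. The products of these genes act in series. Acly makes cytosolic acetyl-CoA, Acaca and Acacb make malonyl-CoA, Fasn builds palmitate with NADPH from Me1 and other enzymes, Elovl6 lengthens it and Scd1 desaturates it. Thrsp encodes Spot 14, a regulator of lipogenesis, and Pnpla3 encodes a lipid droplet protein linked to fatty liver.

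Promoter letters were read from RefSeq (GRCm38.p6, 250 bases before to 50 bases after each start), which holds 12 promoters for 9 of the 10 genes and none for Scd1. The Srebf1 promoter at the most downstream of its annotated starts (chr11:60210422-60210721, - strand, start at 60210471) and the Fasn promoter (chr11:120824498-120824797, - strand, start at 120824547) are shown because both hold an LXR-type element, here GGTTA and GGTCA separated by any 5 bases on either strand. This pattern was chosen after the promoters had been read. Capitals mark the LXR-type element (read on the other strand) and CCAAT or its complement ATTGG.
Srebf1: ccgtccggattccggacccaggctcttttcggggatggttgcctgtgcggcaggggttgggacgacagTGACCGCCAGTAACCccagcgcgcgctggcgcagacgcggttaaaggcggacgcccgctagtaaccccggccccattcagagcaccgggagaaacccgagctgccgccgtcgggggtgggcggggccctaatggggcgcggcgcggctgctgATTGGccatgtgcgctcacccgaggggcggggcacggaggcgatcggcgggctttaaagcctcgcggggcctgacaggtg
Fasn: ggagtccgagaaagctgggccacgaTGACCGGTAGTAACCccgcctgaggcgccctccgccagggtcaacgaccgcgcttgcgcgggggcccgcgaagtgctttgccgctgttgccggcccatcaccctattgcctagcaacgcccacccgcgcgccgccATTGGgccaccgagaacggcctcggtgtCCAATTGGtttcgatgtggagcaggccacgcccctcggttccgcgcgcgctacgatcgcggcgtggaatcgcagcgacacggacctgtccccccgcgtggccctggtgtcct
The LXR-type element lies at -182 to -168 in Srebf1 and at -225 to -211 in Fasn, counted from the start. It was found in 2 of the 12 promoters and in 0.0487% of all 32851 promoters in the table. Because the pattern was chosen after these promoters had been read, the shares are a description and do not measure enrichment. CCAAT was found on either strand in 8 promoters of 7 members, against 37.4% of all promoters. In Fasn the last 2 of the 3 CCAAT boxes overlap. GGGCGG, a GC box, was found in 5 promoters of 4 members (35.7% of all promoters), and TATAAA in the Acacb promoter alone (13.6%). Neither TCACNCCAC, a sterol regulatory element, nor CACGTG, an E-box, was found in the 12 promoters (1.24% and 7.15% of all promoters), and 0 of the 12 held AGGTCA repeated 4 bases apart (0.0152%). The table does not hold bases beyond these windows, so the counts describe the letters of the windows only. Only the spellings given here were searched, so elements of another spelling within the windows were not counted.

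The values are normalized values, a gene's reads over the size factor of its liver. They rest on 65384969 to 89350181 reads per liver on the listed genes. No pair of livers within a group agreed within counting noise (chi-square per degree of freedom 20.8 to 70.0), so none was treated as 1 library deposited more than once. The labels number the livers but do not state that mice were housed or handled separately. No gene in the table is named Blnc1, so the loss of the targeted RNA was not checked here. Summed hepatocyte markers (8 of 8 listed) ranged from 5358312 to 5979881 in control livers and from 5221333 to 6313898 in LKO livers. Because whole liver was sequenced, fewer cells of a type and less RNA per cell cannot be told apart for any gene below.

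The mean of 9 of the 10 genes was lower in LKO livers. By a test adjusted over all genes 1, Srebf1, was lower in DESeq2 but not in limma or edgeR. A mean below that of controls was seen for 50.4% of all 17297 genes tested. The median log2 fold change of the 10 genes was -0.25, against -0.00099 over all genes tested. The genes were chosen with earlier results of these data known, so these contrasts are a description and not an independent test. With limma on log2(value + 1) and Benjamini-Hochberg adjustment over all genes tested, 0 of the 10 genes passed an adjusted p under 0.05 (0.00578% of all genes passed), and with edgeR on the recovered reads 0 passed (0.0116%). With DESeq2 on the recovered reads 1 passed, against 0.538% of all genes in either direction and 0.25% lower in LKO. At an unadjusted limma p under 0.05, 2 of the 10 were lower in LKO, Srebf1 and Acly (2.74% of all genes lower, 2.94% higher, 5.68% in either direction). At that unadjusted level 3 passed in edgeR (5.6% of all genes) and 3 in DESeq2 (4.89%), in both tests Srebf1, Acly and Scd1. For 2 of the 10, Srebf1 and Scd1, every LKO liver lay below every control liver. This held for 5.28% of all genes, while 5.35% were higher in every LKO liver. An exact permutation test of 3 against 3 livers cannot give a p below 0.1.

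**Figure D1:**
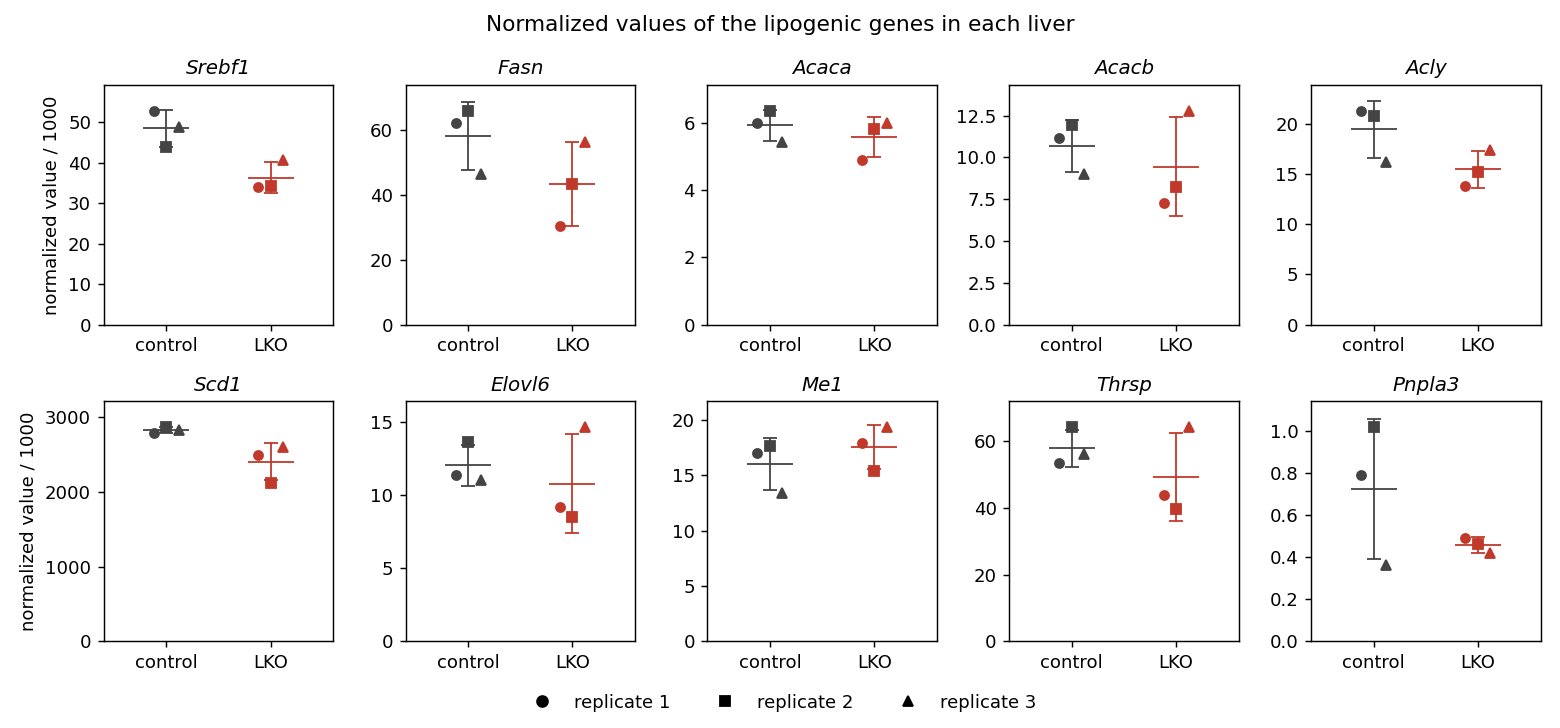
Normalized value (divided by 1000, linear axes from 0) of each lipogenic gene in the 3 control and 3 Blnc1 LKO livers. Symbols give the replicate, lines the mean and bars the SD; the LKO livers sit wholly below the controls for Srebf1 and Scd1.

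Srebf1 (chr11:60199089-60222581, - strand, GENCODE M21 on GRCm38) had normalized values of 52837, 43792 and 48788 in control livers and 34010, 34234 and 40659 in LKO livers. The highest LKO liver lay below the lowest control liver. The mean was 48472 ± 4531 (SD, n = 3) in control livers and 36301 ± 3776 (SD, n = 3) in LKO livers, 25.1% lower. The log2 fold change was -0.42 with a standard error of 0.097 and a 95% interval of -0.64 to -0.20 in limma. Srebf1 ranked 65 of 17297 genes by unadjusted p (0.0022), with an adjusted p of 0.548 in limma, 0.543 in edgeR and 0.0111 in DESeq2. Leaving out 1 liver at a time, its log2 fold change ranged from -0.50 to -0.35. The table gives 1 value per gene symbol, so transcripts of SREBP1a and SREBP1c are summed in it.

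Among genes that supply precursors, Acly (chr11:100476353-100528000, - strand), ATP citrate lyase, had normalized values of 21301, 20812 and 16167 in control livers and 13785, 15194 and 17416 in LKO livers. Control 3 and LKO 3 crossed, and the other 2 LKO livers lay below every control liver. The log2 fold change of Acly was -0.32 (standard error 0.12, 95% interval -0.60 to -0.051), with an unadjusted p of 0.0253 and an adjusted p of 0.840 in limma and 0.424 in DESeq2. Me1 (chr9:86581371-86695953, - strand), the cytosolic malic enzyme, was the single member with a higher mean in LKO livers. Control livers had normalized values of 17009, 17636 and 13348, and LKO livers 17871, 15382 and 19330. The groups overlapped, and the log2 fold change was 0.14 (standard error 0.12, 95% interval -0.14 to 0.41, unadjusted p 0.284, adjusted p = 0.973, limma). It was 0.011 without control 3 and 0.23 without LKO 2.

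Both acetyl-CoA carboxylases had overlapping groups. Acaca (chr11:84129672-84401651, + strand), the cytosolic enzyme, had normalized values of 5974, 6354 and 5414 in control livers and 4879, 5812 and 5981 in LKO livers. Its log2 fold change was -0.09 (standard error 0.090, 95% interval -0.30 to 0.11, adjusted p = 0.973, limma), and lay between -0.15 (without control 3) and -0.0013 (without LKO 1) when 1 liver was left out. Acacb (chr5:114146535-114250761, + strand), the enzyme at the mitochondrial surface, had values of 11147, 11966 and 8982 in control livers and 7245, 8246 and 12796 in LKO livers. For Acacb, LKO 1 and LKO 2 lay below every control liver and LKO 3 above every control liver, and the log2 fold change was -0.22 (standard error 0.20, 95% interval -0.66 to 0.23, adjusted p = 0.973, limma). It was -0.05 without LKO 1 and -0.46 without LKO 3.

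Fasn (chr11:120805846-120824547, - strand), fatty acid synthase, had normalized values of 62113, 66058 and 46420 in control livers and 30493, 43558 and 56325 in LKO livers. LKO 1 and LKO 2 lay below every control liver and LKO 3 within the control range. The coefficient of variation was 29.7% in LKO and 17.9% in control livers. The mean Fasn value was 58197 ± 10388 (SD, n = 3) in control livers and 43459 ± 12916 (SD, n = 3) in LKO livers. The log2 fold change was -0.45 (standard error 0.21, 95% interval -0.94 to 0.039), with an unadjusted p of 0.0669 and an adjusted p of 0.891 in limma. Without LKO 1 the log2 fold change of Fasn was -0.22, and in the other fits without 1 liver it ranged from -0.66 to -0.35.

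Of the enzymes that modify palmitate, Scd1 (chr19:44394455-44407879, - strand), the main hepatic delta-9 desaturase, ranked 2 of all genes by mean normalized value, with 2.97 to 3.87% of all reads. Control livers had normalized values of 2794184, 2866187 and 2830913, and LKO livers 2491966, 2121470 and 2603267. The coefficient of variation was 1.27% in control livers and 10.5% in LKO livers, and all LKO livers lay below all control livers. The mean was 15.0% lower in LKO livers. The log2 fold change was -0.24, with a standard error of 0.27 and an adjusted p of 0.973 in limma. In DESeq2 the standard error was 0.087 and the adjusted p 0.424. The unadjusted p of Scd1 was 0.396 in limma, 0.0300 in edgeR and 0.00714 in DESeq2. The SD of the log2 values was 0.018 in control and 0.16 in LKO livers. The limma standard error also draws on the trend of variance with level over all genes, not on these livers alone. Without LKO 2 the log2 fold change of Scd1 was -0.15. Elovl6 (chr3:129532355-129638495, + strand), which lengthens palmitate to stearate, had values of 11424, 13659 and 11052 in control livers and 9224, 8532 and 14670 in LKO livers. LKO 3 had the highest Elovl6 value of all 6 livers and the other 2 LKO livers the lowest, and the log2 fold change was -0.19 (standard error 0.19, adjusted p = 0.973, limma). Leaving out 1 liver moved it from -0.04 (without LKO 2) to -0.44 (without LKO 3).

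Thrsp (chr7:97412938-97417730, - strand) followed the order of Elovl6 in the LKO livers, with normalized values of 53489, 64154 and 56057 in control livers and 43790, 39687 and 64243 in LKO livers. Its log2 fold change was -0.26 (standard error 0.17, adjusted p = 0.951, limma), -0.12 without LKO 2 and -0.47 without LKO 3. Pnpla3 (chr15:84167837-84187236, + strand) had the lowest normalized values of the 10 genes and the widest spread among controls, with 792, 1017 and 364 in control livers and 493, 462 and 418 in LKO livers. Its coefficient of variation was 45.8% in control livers and 8.24% in LKO livers. The log2 fold change of Pnpla3 was -0.54, with a standard error of 0.32 and a 95% interval of -1.26 to 0.18 (adjusted p = 0.936, limma). It was -0.23 without control 2 and -0.97 without control 3.

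**Figure D2:**
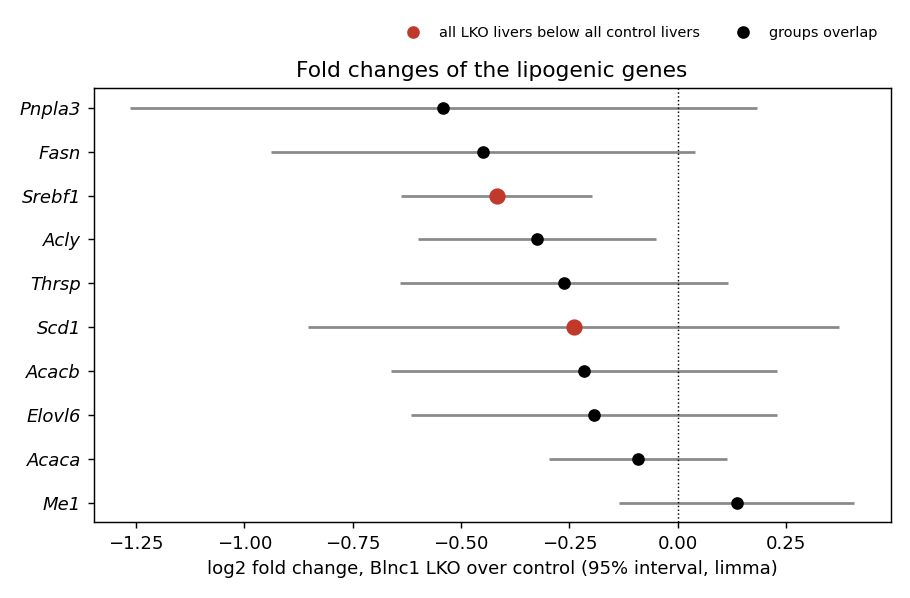
log2 fold change of each lipogenic gene, Blnc1 LKO over control, on the log2(value + 1) scale, with 95% intervals from limma (not adjusted for the number of genes). Red points mark genes with every LKO liver below every control liver; the intervals of Srebf1 and Acly do not reach 0.

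Per kb of exon, Scd1 was far above the rest, at a mean normalized value of 578583 ± 7360 (SD, n = 3) per kb in control livers, followed by Thrsp at 26450 ± 2543 and Srebf1 at 8604 ± 804. Fasn (5316 ± 949), Me1 (4157 ± 602) and Acly (3680 ± 537) formed a middle group in which neighbours overlapped between livers. Elovl6 (1873 ± 219) and Acacb (1111 ± 160) each stood apart from the gene next in order. At the low end, Pnpla3 (468 ± 214) and Acaca (346 ± 27.7) overlapped. In LKO livers the order per kb was the same except that Me1 (4555 ± 519) came before Fasn (3970 ± 1180) and Acaca (326 ± 34.8) before Pnpla3 (296 ± 24.3), and both pairs overlapped. The length is that of all annotated exons joined, which understates the level of a gene with many unused exons.

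The livers within a group did not behave alike across these genes. Relative to the control mean, the median deviation of the 10 genes on the log2 scale was 0.084, 0.15 and -0.18 in control 1 to 3 and -0.41, -0.41 and -0.0056 in LKO 1 to 3. LKO 3 was the highest LKO liver for 9 of the 10 genes, Pnpla3 excepted, where 30.0% of all genes tested had their highest LKO value in that liver. In LKO 3, 2 genes lay below the lowest control liver (27.8% of all genes tested) and 4, Acacb, Elovl6, Me1 and Thrsp, above the highest control liver (29.4%). In LKO 1 and LKO 2, 8 and 7 genes lay below the lowest control liver (32.1% and 27.9% of all genes tested). Among controls, control 3 was the lowest for 7 genes (36.0% of all genes) and control 2 the highest for 8 (32.1%).

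**Figure D3:**
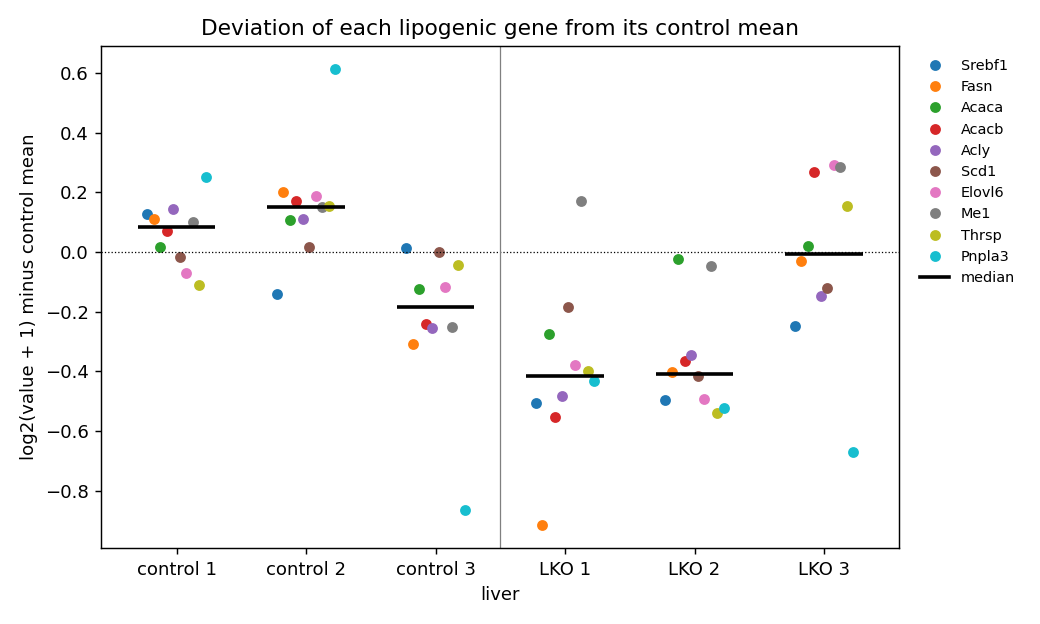
Deviation of each lipogenic gene from its control mean, on the log2(value + 1) scale, in each of the 6 livers, with the median of the 10 genes as a line. The medians of LKO 1 and LKO 2 lie at -0.41 and that of LKO 3 at -0.0056.

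Without LKO 3, 7 of the 10 genes were lower in every LKO liver, Srebf1, Fasn, Acacb, Acly, Scd1, Elovl6 and Thrsp, as were 10.3% of all genes tested, and the median log2 fold change was -0.45. Without control 3, 5 were lower in every LKO liver, Srebf1, Fasn, Acly, Scd1 and Pnpla3, as were 9.71% of all genes tested. Without any 1 of the other 4 livers the number stayed at 2, while the share of all genes tested was 8.60% without control 1, 8.98% without control 2, 10.4% without LKO 1 and 13.6% without LKO 2. Without LKO 2 the median was -0.15. Leaving out a liver can raise the number of genes lower in every LKO liver but cannot reduce it. With all 6 livers that number was 2 (5.28% of all genes tested). The summed value of the adipocyte marker list (7 of 8 genes listed) ordered the livers much as the lipogenic genes did within each group, with 5290, 7786 and 4575 in control livers and 5167, 5549 and 7469 in LKO livers. Its most abundant gene in every liver was Cidea, a lipid droplet protein that steatotic hepatocytes also make, with 3963, 5561 and 3497 in control livers and 2286, 3391 and 5295 in LKO livers. Cfd, the secreted protease adipsin, followed at 773, 1596 and 568 in control livers and 1789, 1435 and 1664 in LKO livers, and was the 1 gene of the list with an unadjusted limma p under 0.05 (log2 fold change 0.87, unadjusted p 0.0231, adjusted p = 0.840). Adrb3 had 546, 622 and 507 in control livers and 1087, 718 and 500 in LKO livers (log2 fold change 0.39, adjusted p = 0.946, limma). Among LKO livers the order of the sum was that of Cidea, while Cfd and Adrb3 were highest in LKO 1. Adipoq, Plin1 and Retn had at most 5 reads in any liver, and Slc36a2 at most 7. The summed stellate cell and fibroblast markers (8 of 8 listed) were 102233 to 114501 in control livers and 84327 to 102054 in LKO livers, without overlap. Within that list the log2 fold change was -0.61 for Col1a1, -0.48 for Col1a2, -0.47 for Col3a1 and -0.52 for Acta2, while Pdgfrb (-0.10), Dcn (-0.06), Des (-0.02) and Lrat (0.16) were nearer 0. The endothelial sum (7 of 7 listed) did not overlap either, at 24195 to 25495 and 23363 to 23986. The part of these cell types in the results was not tested.

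The 10 genes together took 4.09, 4.20 and 4.06% of the reads of control livers and 3.41, 3.21 and 3.80% of those of LKO livers. Nearly all of this was Scd1. The other 9 genes took 0.318, 0.332 and 0.276% in control livers and 0.208, 0.240 and 0.311% in LKO livers, which overlapped.

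Each gene was also set against Srebf1 of the same liver, to describe whether the enzymes kept their proportion to the regulator. Srebf1 itself was lower in every LKO liver (log2 fold change -0.42, limma). The ratio of an unchanged gene to it would therefore be higher in LKO livers. Me1 alone was at 0.14 with overlapping groups, and the share of all genes with separated ratios was not counted. The ratio of Me1 to Srebf1 was 0.322, 0.403 and 0.274 in control livers and 0.525, 0.449 and 0.475 in LKO livers, without overlap. The difference was 0.55 on the log2 scale, with an exact permutation p of 0.1 (two-sided, n = 3 per group), the smallest this design allows, and 0.6 after Benjamini-Hochberg adjustment over 9 ratios. For the other 8 genes the ratios overlapped between groups, from a difference of -0.12 for Pnpla3 to 0.33 for Acaca on the log2 scale. The ratio of Fasn to Srebf1 was 1.18, 1.51 and 0.951 in control livers and 0.897, 1.27 and 1.39 in LKO livers.

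The genes whose profile over the 6 livers was most like that of Srebf1 were Apoa4, Frmd4b, Epha2, Acot2 and Shb, among 7830 genes with a mean value of at least 1000. Likeness was the root mean square difference of the log2 values centred on each gene, which was 0.059 for Apoa4 and 0.060 for Frmd4b, and 0.095, 0.096 and 0.099 for Epha2, Acot2 and Shb. A flat profile would differ from Srebf1 by 0.239. Apoa4, an apolipoprotein, had values of 586951, 520148 and 509011 in control livers and 364798, 369167 and 439268 in LKO livers. Of the lipogenic genes, Scd1 came closest to Srebf1, at rank 44 with 0.146, and Acly at rank 102 with 0.162. Acacb (rank 4654, 0.256), Elovl6 (rank 4759, 0.258), Fasn (rank 5765, 0.272) and Me1 (rank 7329, 0.327) were farther from Srebf1 than a flat profile, while Pnpla3 was under the minimum level and was not ranked. These ranks are over 6 livers of 2 groups, and are a description.

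Around these genes, 126 others of the pathway were examined in 10 lists, and 0 of them passed an adjusted p under 0.05 in limma, edgeR or DESeq2. At an unadjusted limma p under 0.05, 10 were lower and 4 higher in LKO livers (2.74% and 2.94% of all genes). A lower mean was seen in 71 of the 126 (50.4% of all genes), and the median log2 fold change was -0.015. In 10 the LKO livers lay wholly below the control livers and in 4 wholly above, against the 5.28% and 5.35% of all genes given above.

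**Figure D4:**
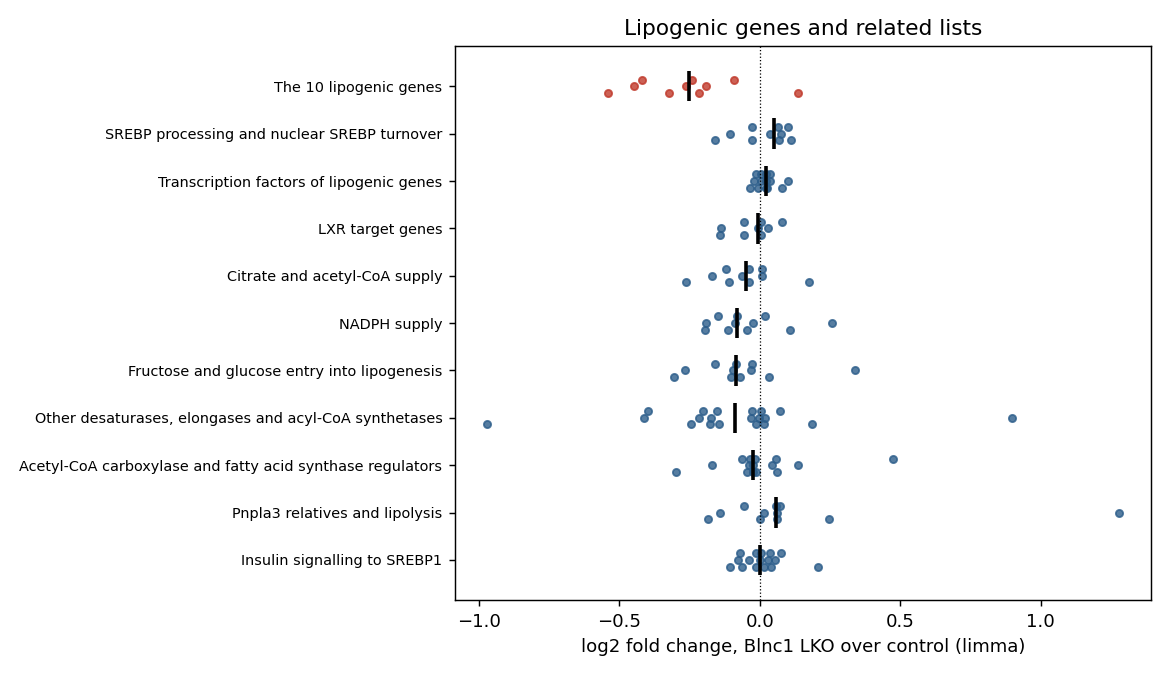
log2 fold change (limma, Blnc1 LKO over control) of the 10 lipogenic genes and of the genes of 10 related lists without them; points are genes and black lines medians. The median of the 10 lipogenic genes lies at -0.25, and those of the related lists are nearer 0.

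In the list of SREBP processing and turnover, 4 of 10 genes had a lower mean and 0 had an unadjusted p under 0.05 in limma. Insig1, which holds SREBP in the endoplasmic reticulum and is itself an SREBP target, was at -0.16 on the log2 scale (standard error 0.071, unadjusted p 0.0528, adjusted p = 0.879, limma). Scap, the SREBP escort protein, was at 0.10 and Mbtps2, the site-2 protease, at -0.11. Srebf2, which encodes the related factor of cholesterol synthesis, was at -0.03. Among 14 transcription factors of lipogenic genes, 4 had a lower mean and 0 an unadjusted p under 0.05. Nr1h3, which encodes LXR alpha, was higher in every LKO liver, at 0.08 on the log2 scale (standard error 0.051, adjusted p = 0.951, limma). Rxra, its partner, was at 0.10, Mlx, the partner of ChREBP, at 0.04 and Mlxipl, which encodes ChREBP, at 0.02.

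The LXR target list held 11 genes, Srebf1 and Scd1 among them, of which 7 had a lower mean, 1 (Srebf1) an unadjusted p under 0.05 and a median log2 fold change of -0.06. Abca1 and Abcg1, the cholesterol exporters, were at -0.06 (standard error 0.077) and -0.14 (standard error 0.14), and Abcg5 at -0.14 (standard error 0.17), with adjusted p-values of 0.973 to 0.978 in limma. Apart from Srebf1, 0 genes of the list passed an unadjusted p under 0.05 in limma.

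In carbohydrate entry, 9 of 11 genes had a lower mean, and 2 were lower and 1 higher at an unadjusted p under 0.05. Pfkl, liver phosphofructokinase, was lower in every LKO liver (log2 fold change -0.27, standard error 0.070, adjusted p = 0.619, limma). Slc2a5, the fructose transporter GLUT5, was higher in every LKO liver (log2 fold change 0.34, standard error 0.13, adjusted p = 0.840, limma).

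Citrate and acetyl-CoA supply held 7 of 10 genes with a lower mean and 1, Pdhb of the pyruvate dehydrogenase complex, with an unadjusted p under 0.05 (log2 fold change -0.17, adjusted p = 0.840, limma). Pdk4, the kinase that inhibits that complex, was at -0.26, and Acss2, which makes acetyl-CoA from acetate, at 0.17. Of 11 NADPH supply genes, 8 had a lower mean and 1, Nnt, the mitochondrial transhydrogenase, was lower in every LKO liver (log2 fold change -0.19, adjusted p = 0.767, limma). Idh2 was at -0.15 and Pgd at -0.11.

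The 20 other desaturases, elongases and acyl-CoA synthetases formed the longest of the lists. In 6 of them the groups separated, all lower in LKO livers: Scd3, Fads1, Fads2, Elovl5, Elovl7 and Acsl3. Over all genes, 5.28% were lower in every LKO liver and 5.35% higher. In limma, 5 of the 20 were lower and 1 higher at an unadjusted p under 0.05 (2.74% and 2.94% of all genes). The list median was -0.09. Fads2 and Fads1, the delta-6 and delta-5 desaturases of polyunsaturated fatty acids, were at -0.24 (standard error 0.088) and -0.20 (standard error 0.076), both with an adjusted p of 0.840 in limma. Acsl3 was at -0.41 and Elovl7 at -0.40. Elovl3 had the opposite sign, with a mean of 1682 ± 319 in control livers and 3228 ± 1044 in LKO livers (SD, n = 3), and its log2 fold change was 0.90 (adjusted p = 0.648, limma, standard error 0.24). Of the relatives of Scd1, Scd2 was at -0.17 and Scd4 at -0.22, and Scd3, near 29.1 in control and 15.6 in LKO livers, at -0.97. How the counting placed reads that match several of these similar genes is not given in the sources used here, so the low values of Scd3 and Scd4 are uncertain.

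Among 15 regulators of acetyl-CoA carboxylase and fatty acid synthase, 10 had a lower mean, and 1 was lower and 1 higher at an unadjusted p under 0.05. Mid1ip1, a paralog of Thrsp that promotes carboxylase assembly, was at -0.30 (standard error 0.13, adjusted p = 0.873, limma). Prkab1, an AMPK subunit, was lower in every LKO liver at -0.17, and Trib3, a pseudokinase, was at 0.47 (adjusted p = 0.859, limma). Of 11 relatives of Pnpla3 and lipolysis genes, 8 had a higher mean, among them Pnpla2, the adipose triglyceride lipase, at 0.06 and Lipe, hormone-sensitive lipase, at 0.25, and Hilpda, an inhibitor of lipolysis, was at -0.14. The 1 gene of that list with an unadjusted p under 0.05, Pnpla1, had mean values of 1.33 and 5.23, near the smallest counts of the table. Of 16 genes that link insulin to SREBP1, 7 had a lower mean and 0 an unadjusted p under 0.05, with Irs2 at 0.21, Foxo1 at -0.11 and Irs1 at -0.08.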

How the data were processed

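PolyA-selected RNA from 3 control and 3 Blnc1 LKO livers was analysed. The authors aligned reads to mm10 with STAR and counted them with HTSeq; the submitters' processing notes also name FastQC and DESeq2, with versions and the gene annotation not given in the sources used here. The deposited signal is each gene's reads over the liver's size factor. All values (100%) were whole multiples of 1 read within 0.05, so reads were recovered for edgeR (4.0.16, quasi-likelihood), DESeq2 (1.42.0) and voom as alternatives. The library kit does not mark strand, so antisense reads cannot be separated. limma (3.58.1, R 4.3.3, with trend) was fitted to log2(value + 1) of the 17297 genes that reached a value of 1 in 3 or more livers, with calls at an adjusted p under 0.05 (Benjamini-Hochberg). This scale understates changes of low genes. All members passed the filter. Other alternatives were a pseudocount of 0.1, no filter, at least 10 reads in every liver, library size scaling, the replicate number as a block, and each liver left out. Fits were tested on simulated data with planted changes larger than those of the members. That check does not show how often changes of the members' size would be called.

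The 10 members, 10 related lists and 9 marker lists were chosen with earlier results of these data known. Named from each related list were the 3 genes of smallest unadjusted p and, for context, genes chosen after their values were seen. Sums of marker lists not described in the results overlapped between groups, except pancreas acinar cell (2 of 5 listed, 1013 to 1156 in control and 1200 to 1330 in LKO livers). p-values set the difference between groups against the spread between these livers, which limma, edgeR and DESeq2 moderate with the spread of other genes. Values of 1 gene of the related lists are not reported here.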

Additional observations from a re-analysis of the deposited data

How the results depend on the processing

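Under 15 alternatives the log2 fold changes of the 10 lipogenic genes kept their sign in 150 of 150 values, and 2 passed the threshold, both Srebf1 in DESeq2. All alternatives are refits of the same livers, and some leave the estimate unchanged by design. The 150 values are therefore not independent, and the kept signs are a description. The number of genes called over the whole table was 1 in limma, 2 without a filter, 2 in edgeR and 84 in DESeq2, and 0 to 13 with each liver left out in turn (0 without control 1, where 665 genes had an unadjusted limma p under 0.05, and 13 without LKO 2). The number of lipogenic genes called was 0 in limma and 1 in DESeq2. The number lower in every LKO liver was 2 with all livers and 2 to 7 with each liver left out, which cannot reduce it. The adjusted p of Srebf1 ranged from 0.00878 to 1.00. The causes were not tested.

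The replicate number as a block gave 0 called genes in limma (912 with an unadjusted p under 0.05) and 57 in DESeq2, with 1 lipogenic gene, Srebf1, in DESeq2 (adjusted p = 0.00878) and 0 in limma (adjusted p of Srebf1 0.658). Deviations of livers with the same number correlated at -0.080, -0.0055 and -0.12, and not every liver correlated best with its own number, so the numbers were not taken as pairs. With 3 livers a group, limma's 95% interval for Fasn allows differences from -0.94 to 0.039 on the log2 scale.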
